A study of Mus musculus with 4 samples.

Results

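Growth factor receptor kinases are transmembrane proteins whose outer part binds a secreted ligand and whose inner part phosphorylates tyrosines, which starts signalling through adaptors, RAS-ERK and PI3K. Their outer parts carry N-linked glycans, and branched N-glycans, which bind galectins, are known to lengthen the stay of such receptors at the cell surface. The enzyme made from Mgat5 works in the Golgi, where it starts the beta-1,6 branch of these glycans. The members examined were Egfr, Erbb2, Erbb3, Met, Pdgfra, Pdgfrb, Fgfr1, Flt1, Axl and Kit, chosen by name as glycoprotein receptors of this kind. A probe set carrying the symbol was found for 9 of the 10, among 19505 named genes in all, and each of the 9 had exactly 1 probe set. Pdgfra had none under that symbol in the annotation used and was not analysed here. The array reads messenger RNA, so surface protein and its glycans were not measured.

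The study used MC38, a mouse colon adenocarcinoma cell line, and a CRISPR-Cas9 knockout of Mgat5. The knockout group held the lines titled KO T5 clone 1 and KO T5 clone 2, and the control group held cells with an empty vector (MOCK) and untransfected cells (WT), with 1 Clariom S mouse array for each and so n = 2 per group. No treatment, time or passage was given for any group, and no other allele. Each knockout line is 1 clone and neither control is titled as a clone, so effects of cloning and of Mgat5 loss cannot be told apart. Nothing in the labels says that the arrays came from separate cultures, so p-values measure only the spread between these 4 arrays, and that number limits their precision.

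Values are normalized log2 signals, so a difference of 1 is a doubling. Mgat5 itself stood at 7.46 and 7.57 in clone 1 and clone 2 and at 8.19 and 8.27 in MOCK and WT, and this difference of -0.71 log2 units did not pass limma's test (adjusted p = 0.631). After quantile normalization it was -1.11 (unadjusted p = 0.00762, limma adjusted p = 0.419), and both clones were below both controls on each scale. The spread of signals differed between arrays. At the 99th percentile of all probe sets the signal was 15.8 in each clone, against 15.9 in MOCK and 14.7 in WT, and the median difference over all 22206 probe sets, knockout minus control, was 0.18 log2 units as deposited and -0.02 after quantile normalization, which gives every array the same distribution. Both scales are therefore given for the receptors. The median of the 5222 negative control features ran from 5.12 to 5.22 over the arrays and their 95th percentile from 8.62 to 8.98. Mgat5 lay above that median and under that 95th percentile on all 4 arrays. All 9 epithelial markers lay below that 95th percentile on all 4 arrays and 7 of them under the median as well. Epcam stood at 3.65 and 3.42 in the clones and at 3.29 and 3.13 in MOCK and WT, so the defining markers of an epithelial cell were at background in cells labelled adenocarcinoma. The summed signal of the epithelial list was 7.52 and 7.41 log2 units in clone 1 and clone 2 and 7.46 and 7.60 in MOCK and WT. All 7 endothelial and all 7 measured haematopoietic markers were below the 95th percentile of the negative controls on every array, with 6 of 7 below the median in each list. Of 8 fibroblast markers, 4 were below the 95th percentile of the negative controls on every array (Thy1, Lum, Col1a1 and Col1a2) and 3 were above it on every array (Vim, Col3a1 and Dcn). The summed signal of that list was 17.31 and 17.12 log2 units in clone 1 and clone 2 and 17.53 and 16.76 in MOCK and WT, most of it from the filament gene Vim, at 17.28 and 17.07 in the clones and at 17.43 and 16.53 in MOCK and WT. The matrix proteoglycan gene Dcn stood at 8.94 and 11.18 in the clones and at 12.95 and 13.61 in MOCK and WT, a difference of -3.22 (limma adjusted p = 0.121). Postn, a matrix protein gene, stood at 4.79 in clone 1 and 9.09 in clone 2, against 6.41 in MOCK and 4.91 in WT. The part of these differences in the results for the receptors was not tested.

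The stretches before the start sites of 3 receptors are printed, chosen by the gap between the clones. Members with a promoter entry and signals above the negative control median on every array were considered. Among these the clones lay furthest apart for Flt1 and Met and closest for Erbb2. Each is the 250 bases upstream of the annotated start in RefSeq (build GRCm38.p6), read 5′ to 3′ on the strand of the gene, with every GC box (GGGCGG or its reverse complement CCGCCC, the letters bound by Sp1-type factors) in capitals.
Flt1: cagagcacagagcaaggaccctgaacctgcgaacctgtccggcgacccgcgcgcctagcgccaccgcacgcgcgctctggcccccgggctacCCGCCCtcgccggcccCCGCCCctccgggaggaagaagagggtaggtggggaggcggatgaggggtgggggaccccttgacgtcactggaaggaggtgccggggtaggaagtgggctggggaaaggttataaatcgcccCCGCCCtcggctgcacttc
Met: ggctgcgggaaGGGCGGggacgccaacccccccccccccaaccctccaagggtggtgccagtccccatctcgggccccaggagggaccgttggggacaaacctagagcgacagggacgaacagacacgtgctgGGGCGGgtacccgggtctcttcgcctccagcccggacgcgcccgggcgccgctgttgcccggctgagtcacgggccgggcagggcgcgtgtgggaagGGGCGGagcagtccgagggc
Erbb2: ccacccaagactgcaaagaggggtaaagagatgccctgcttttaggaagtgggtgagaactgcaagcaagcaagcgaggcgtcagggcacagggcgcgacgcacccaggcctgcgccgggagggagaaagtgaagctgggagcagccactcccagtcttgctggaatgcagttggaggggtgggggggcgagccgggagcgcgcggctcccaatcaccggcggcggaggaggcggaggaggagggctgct
The Flt1 stretch is chr5:147726012-147726261 on the minus strand, the Met stretch chr6:17463707-17463956 on the plus strand and the Erbb2 stretch chr11:98412234-98412483 on the plus strand. The GC box occurred 3 times in the Flt1 stretch, 3 times in the Met stretch and 0 times in the Erbb2 stretch, where 32.7% of all 32851 promoter stretches of this length held at least 1. A TATA box (TATAAA on either strand) was found in the Flt1 stretch, beginning 31 bases before the start, and in 12.4% of all stretches. Their GC content was 70.4% for Flt1, 74.0% for Met and 66.0% for Erbb2, beside a median of 52.4%. These matches describe letters only. Of the 10 members 7 had an entry in the promoter table.

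The comparison of knockout with control asks whether loss of Mgat5 goes with a changed level of the receptor transcripts. No receptor passed the test on either scale. Of the 9 measured, 0 were called by limma at an adjusted p under 0.05, where 0.0405% of all probe sets were called as deposited and 0.0045% after quantile normalization. At an unadjusted p under 0.05 the count was 0 of 9 on both scales, where 8.75% of all probe sets lay under it as deposited and 8.92% after quantile normalization. As deposited 6 receptors were higher and 3 lower, with a median difference of 0.28 log2 units, beside 65.1% higher and a median of 0.18 over all probe sets. After quantile normalization 2 were higher and 7 lower, with a median of -0.11, beside 48.3% higher and -0.02 over all probe sets. The signs of Erbb2, Pdgfrb, Fgfr1 and Axl turned between the scales. In a bulk extract, fewer cells carrying a transcript and less transcript per cell cannot be told apart.

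**Figure D1:**
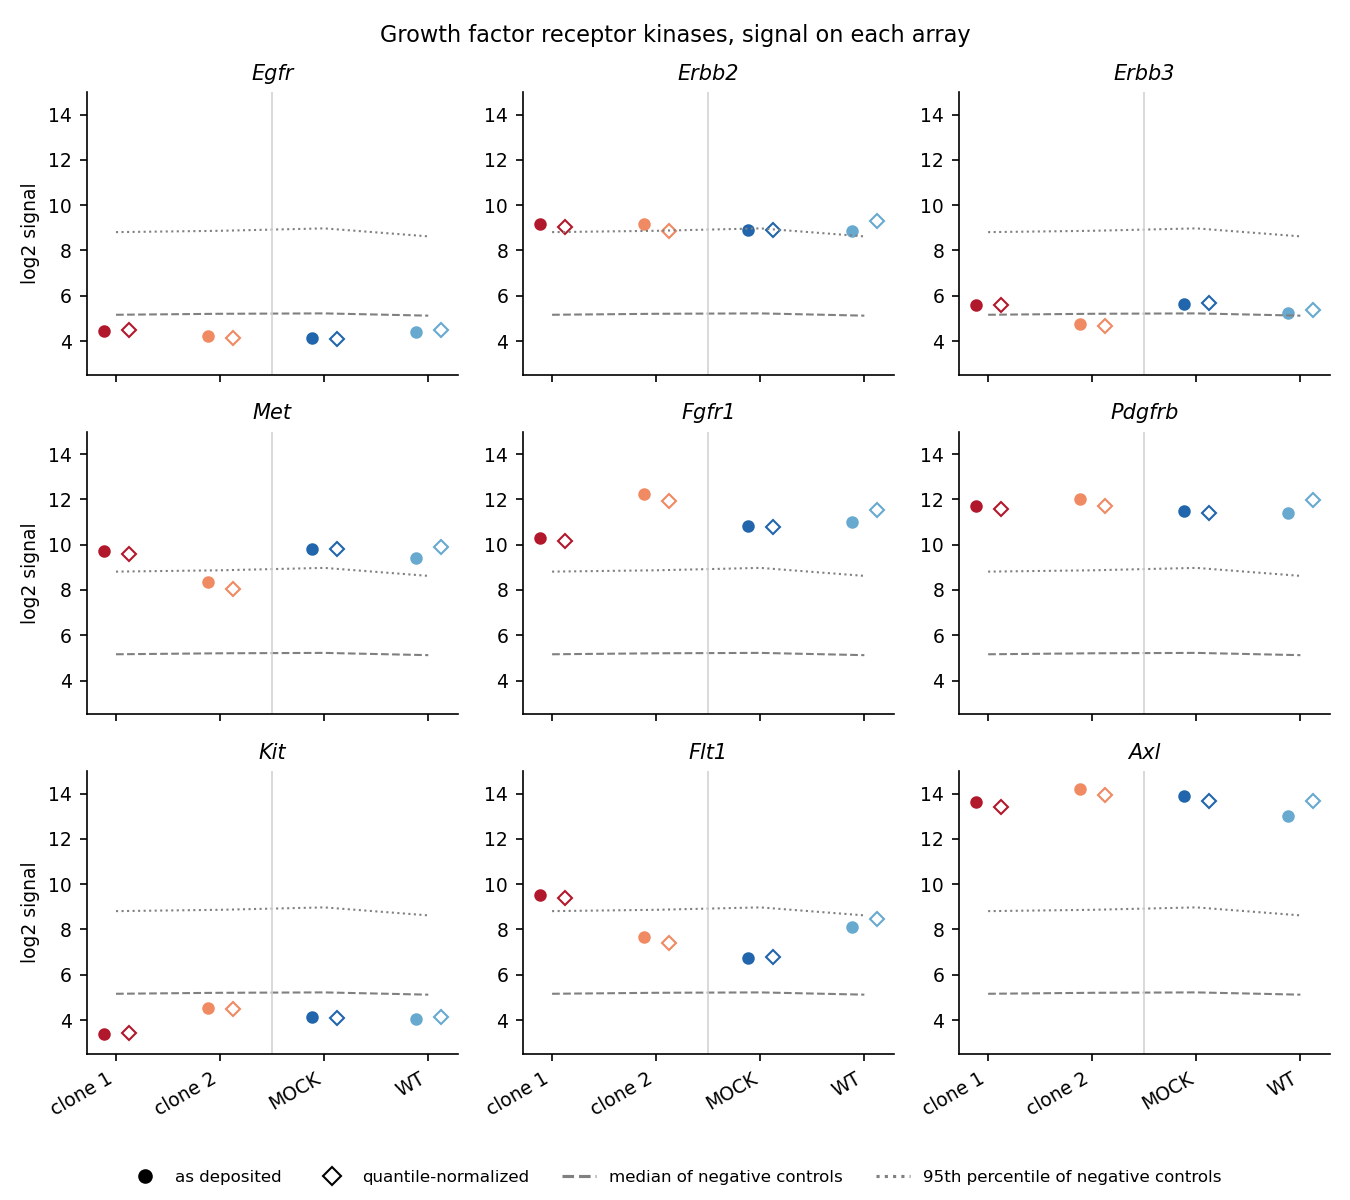
Log2 signal (vertical axis) of the 9 measured receptors on the arrays of clone 1, clone 2, MOCK and WT (horizontal axis). Filled circles are values as deposited, open diamonds the same values after quantile normalization, and the dashed and dotted lines the median and 95th percentile of the negative control features as deposited. Egfr and Kit lie under the dashed line on all 4 arrays, while Pdgfrb, Fgfr1 and Axl lie above the dotted line on all 4.

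**Figure D2:**
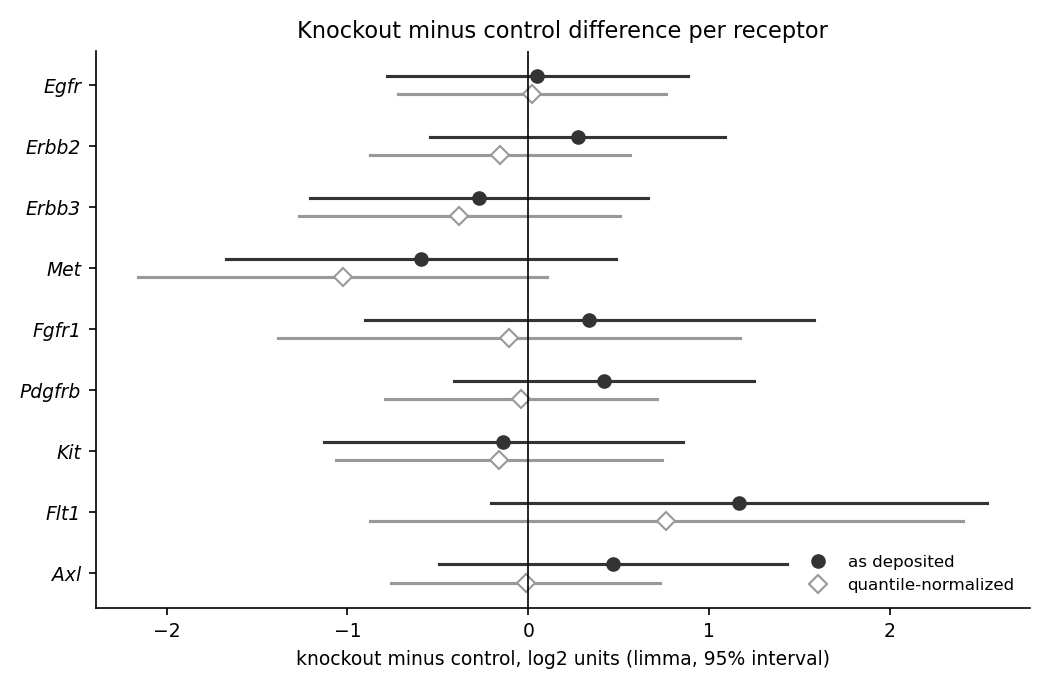
Knockout minus control difference in log2 units (horizontal axis) of each receptor, with limma's unadjusted 95% interval as a line. Filled circles are as deposited and open diamonds quantile-normalized. Every interval spans 0 on both scales.

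The ERBB receptors are read first. Egfr, the receptor for epidermal growth factor and its relatives, was at background. It stood at 4.44 in clone 1 and 4.21 in clone 2, against 4.15 in MOCK and 4.40 in WT. All 4 signals were under the negative control median, so no fold is given. Erbb2, which has no known soluble ligand and signals as a partner of the other ERBB receptors, stood at 9.16 in clone 1 and 9.17 in clone 2, against 8.90 in MOCK and 8.88 in WT. Both clones were above both controls by a narrow margin, and the replicates of each group lay very close together. The means were 9.16 ± 0.01 in the knockout and 8.89 ± 0.02 in the control (SD, n = 2 each), a difference of 0.28 log2 units (95% interval -0.54 to 1.09, limma adjusted p = 0.871). After quantile normalization it stood at 9.05 in clone 1 and 8.86 in clone 2, against 8.92 in MOCK and 9.29 in WT, and the groups overlapped, with a difference of -0.15. Erbb3, whose own kinase is weak and which passes signals on through PI3K, stood at 5.60 in clone 1 and 4.76 in clone 2, against 5.66 in MOCK and 5.25 in WT. Clone 2 was below the negative control median and the other 3 arrays only just above it, so this receptor too was near background.

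Met, the receptor for hepatocyte growth factor, was low in clone 2 alone. It stood at 9.73 in clone 1 and 8.34 in clone 2, against 9.83 in MOCK and 9.43 in WT. Clone 1 lay within the range of the controls and clone 2 was below both. The knockout mean was 9.03 ± 0.99 and the control mean 9.63 ± 0.28 (SD, n = 2 each), a difference of -0.59 log2 units (95% interval -1.67 to 0.48, limma adjusted p = 0.768). After quantile normalization the values were 9.61 and 8.03 in clone 1 and clone 2 and 9.82 and 9.88 in MOCK and WT. Both clones were then below both controls, clone 1 by a small margin, and the difference was -1.03 (95% interval -2.16 to 0.10, adjusted p = 0.590). With clone 1 left out, clone 2 differed from the controls by -1.80 on a quantile-normalized scale and passed limma's test (adjusted p = 0.0112), a fit that takes the lone clone to vary as the controls do and in which 3.62% of all probe sets were called. The same fit on the deposited values gave -1.29 (adjusted p = 0.242). With clone 2 left out, the difference was 0.10 as deposited and -0.24 on a quantile-normalized scale, so its direction rests on clone 2 as deposited only.

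Fgfr1, a receptor for fibroblast growth factors, moved in opposite directions in the clones. It stood at 10.29 in clone 1 and 12.22 in clone 2, against 10.85 in MOCK and 10.99 in WT. Clone 2 was above both controls and clone 1 below both, while the controls lay close together. Clone 1 was -0.63 and clone 2 1.30 log2 units from the control mean, or -0.98 and 0.76 after quantile normalization. The group means were 11.26 ± 1.36 in the knockout and 10.92 ± 0.10 in the control (SD, n = 2 each), and the difference of 0.34 log2 units (limma adjusted p = 0.899) was smaller than the spread between the clones. Pdgfrb, a receptor for platelet-derived growth factors B and D known from mesenchymal cells, stood at 11.70 in clone 1 and 12.02 in clone 2, against 11.47 in MOCK and 11.42 in WT. Both clones were above both controls. The difference was 0.42 log2 units (95% interval -0.41 to 1.25, limma adjusted p = 0.787). After quantile normalization WT, at 11.96, was the highest array, the groups overlapped and the difference was -0.04.

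Flt1, the receptor for VEGF-A, VEGF-B and placental growth factor also known as VEGFR1, had the largest difference of group means among the receptors as deposited, while Met had it after quantile normalization. It stood at 9.51 in clone 1 and 7.69 in clone 2, against 6.75 in MOCK and 8.12 in WT. Clone 1 was above every other array, and clone 2 lay between MOCK and WT. All 4 signals were above the negative control median, but only that of clone 1 was above the 95th percentile of the negative controls. The means were 8.60 ± 1.29 in the knockout and 7.43 ± 0.97 in the control (SD, n = 2 each), a difference of 1.17 log2 units (95% interval -0.21 to 2.54, limma adjusted p = 0.641). After quantile normalization it was 0.76 (95% interval -0.88 to 2.40, adjusted p = 0.784). Without clone 1 it was 0.25 as deposited and -0.23 quantile-normalized, and without MOCK it was 0.48 and -0.08, so its size rests on both of these arrays. MOCK and WT themselves were 1.37 log2 units apart, with MOCK lower, which was the widest gap between the controls among the 9 receptors. The named genes whose 4-array profiles lay nearest to that of Flt1, each profile centred on its own mean, were Prorsd1, Lekr1 and Mgp, at Euclidean distances of 0.26, 0.29 and 0.33 log2 units. Prorsd1 was also among the nearest 3 after quantile normalization, at 0.41, behind Alcam at 0.30 and Adam3 at 0.37.

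Axl, the receptor for the vitamin K-dependent protein GAS6, was well above background on every array. It stood at 13.62 in clone 1 and 14.20 in clone 2, against 13.88 in MOCK and 13.00 in WT. The groups overlapped, with WT lowest and clone 2 highest. The difference of 0.47 log2 units (95% interval -0.49 to 1.43, limma adjusted p = 0.795) became -0.01 after quantile normalization, which raised WT to 13.69 beside 13.67 in MOCK. Kit, the receptor for stem cell factor, stood at 3.38 in clone 1 and 4.55 in clone 2, against 4.14 in MOCK and 4.06 in WT. All 4 signals were under the negative control median, and no fold is given.

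As deposited, Erbb2 and Pdgfrb were the 2 of 9 receptors with both clones above both controls, where 27.8% of all probe sets were, and 0 of 9 had both clones below, where 11.7% were. After quantile normalization 0 of 9 had both clones above, where 19.2% of all probe sets were, and 1, Met, had both below, where 21.3% were. These shares stayed near or under the background of the whole array.

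The clones were also set against each other and singly against the controls. Each clone is a single array, so the counts in this comparison are given by size and with no test. Clone 2 and clone 1 were at least 1 log2 unit apart for 4 of 9 receptors, where 12.7% of all probe sets were, and for 4 of 9 after quantile normalization, where 11.3% were. The 4 were Fgfr1, higher in clone 2 by 1.93, Flt1, which differed by -1.82 (clone 2 minus clone 1), Met by -1.39, and Kit by 1.17 with every signal under the negative control median. After quantile normalization the same 4 differences were 1.74, -1.98, -1.57 and 1.03. Erbb3 came next, at -0.85 and -0.95 after quantile normalization, with clone 2 under the negative control median. Axl differed by 0.58, Pdgfrb by 0.32, Egfr by -0.23 and Erbb2 by 0.02.

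**Figure D3:**
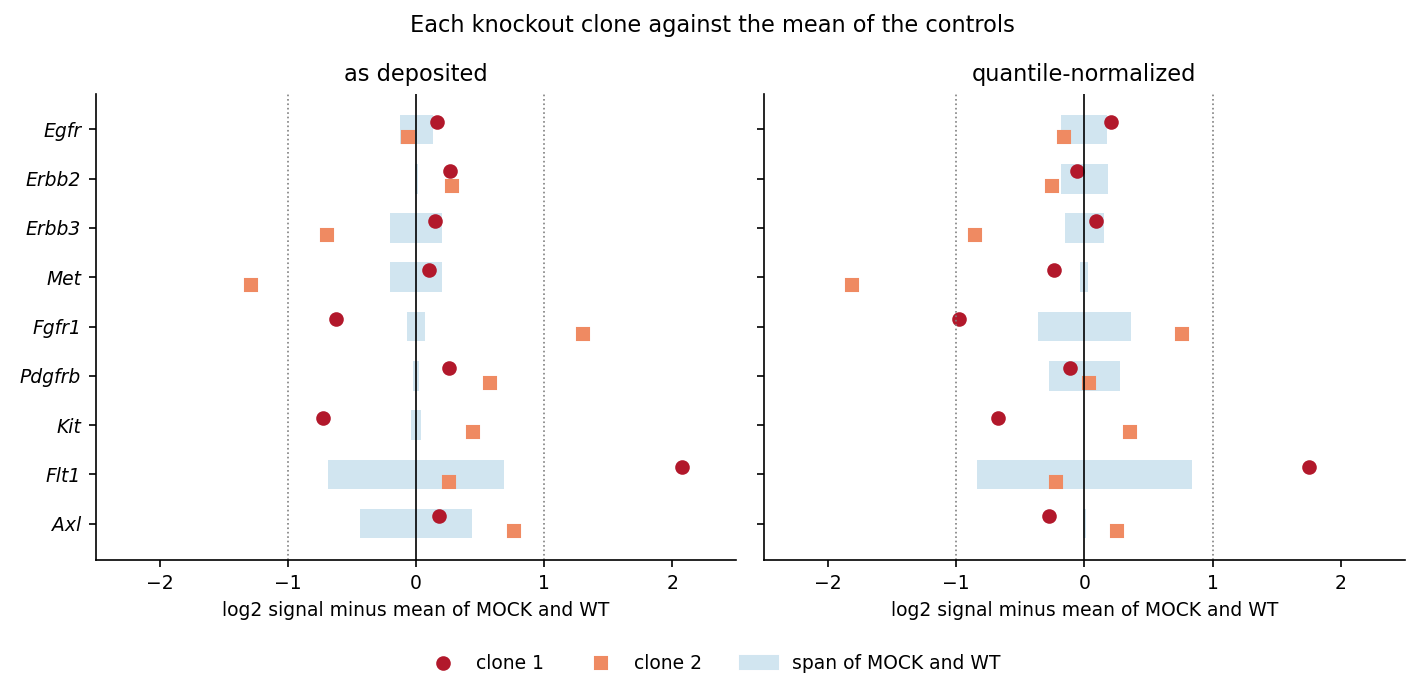
Signal of clone 1 (circles) and clone 2 (squares) minus the mean of MOCK and WT, in log2 units (horizontal axis), for each receptor, as deposited (left) and quantile-normalized (right). Pale bars show the span of MOCK and WT around their mean and dotted lines mark 1 log2 unit. Clone 1 stands out for Flt1 and clone 2 for Met on both scales. The clones fall on opposite sides of the controls for Fgfr1 and Kit on both scales, and for Axl after quantile normalization. Kit was under the negative control median on every array.

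Against the mean of the controls, clone 1 lay at least 1 log2 unit away for 1 of 9 receptors, Flt1 at 2.08, where 8.61% of all probe sets did. Clone 2 did so for 2 of 9, Fgfr1 at 1.30 and Met at -1.29, where 13.7% did. After quantile normalization clone 1 kept Flt1, at 1.75, where 6.97% of probe sets passed that mark, and clone 2 kept Met, at -1.81, where 9.96% did. MOCK and WT were that far apart for 1 of 9, Flt1, where 10.1% of all probe sets were as deposited and 4.52% after quantile normalization.

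The ligands of these receptors were mostly at background. Of 22 measured ligand genes 12 were under the negative control median on all 4 arrays, among them Egf, Tgfa, Hgf, Gas6, Pgf, Pdgfb, Fgf1, Fgf2, Fgf4 and Fgf5. The 7 above that median on all arrays were Ereg, Btc, Nrg1, Pdgfa, Vegfa, Vegfb and Kitl. Limma called 0 of 22 on either scale, where 0.0405% of all probe sets were called as deposited and 0.0045% after quantile normalization. At an unadjusted p under 0.05 there was 1, Btc, as deposited, and 4 after quantile normalization, which were Btc, Vegfb, Nrg2 and Fgf2, the last 2 under the negative control median on all arrays, where 8.75% and 8.92% of all probe sets lay under that p. In number 11 were higher and 11 lower on each scale, with medians of 0.01 and -0.07 log2 units. Over all probe sets 65.1% were higher as deposited and 48.3% after quantile normalization.

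Of the ERBB ligands, Btc, which encodes the EGFR ligand betacellulin, stood at 6.93 in clone 1 and 7.83 in clone 2, against 6.004 in MOCK and 6.31 in WT. Both clones were above both controls, by 1.22 log2 units in the means (limma adjusted p = 0.435) and by 0.90 after quantile normalization, and all 4 signals were under the 95th percentile of the negative controls. Ereg, which encodes the EGFR ligand epiregulin, stood at 9.92 and 9.45 in clone 1 and clone 2 and at 10.13 and 9.90 in MOCK and WT. Its groups overlapped as deposited, and after quantile normalization both clones were lower, with a difference of -0.75 (adjusted p = 0.579). Nrg1, which encodes the ERBB3 ligand neuregulin 1, stood at 13.41 and 14.09 in clone 1 and clone 2, against 13.06 and 12.66 in MOCK and WT. The difference of 0.89 log2 units (adjusted p = 0.575) was 0.40 after quantile normalization, and the groups then overlapped.

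Of the PDGF genes, Pdgfa stood at 11.08 in clone 1 and 8.25 in clone 2, against 10.36 in MOCK and 10.06 in WT. Clone 1 was the highest array and clone 2 the lowest, and the difference of group means was -0.54 (limma adjusted p = 0.870). Pdgfc stood at 6.18 in clone 1 and 8.64 in clone 2, against 7.17 in MOCK and 4.73 in WT. Each group spanned over 2 log2 units and they overlapped (difference 1.46, adjusted p = 0.670). All Pdgfc signals were under the 95th percentile of the negative controls, and that of WT was under their median as well. With clone 1 left out, clone 2 alone differed from the controls by -1.96 for Pdgfa (adjusted p = 0.0341) and by 2.69 for Pdgfc (adjusted p = 0.0323), in a fit that called 2.38% of all probe sets. Under quantile normalization the same fit called Pdgfa (adjusted p = 0.00127) and not Pdgfc.

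Of the VEGF genes, Vegfa stood at 11.44 and 11.84 in clone 1 and clone 2, against 11.06 and 10.50 in MOCK and WT. Both clones were higher, by 0.86 log2 units in the means (limma adjusted p = 0.583) and by 0.41 after quantile normalization. Vegfb stood at 12.36 and 11.77 in clone 1 and clone 2, against 12.77 and 12.22 in MOCK and WT, and its groups overlapped. After quantile normalization both clones were lower, by a difference of -0.92 (adjusted p = 0.526). Kitl, which encodes stem cell factor, stood at 11.28 and 11.37 in the clones, against 11.12 and 10.62 in MOCK and WT. Its difference of 0.46 was 0.02 after quantile normalization.

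**Figure D4:**
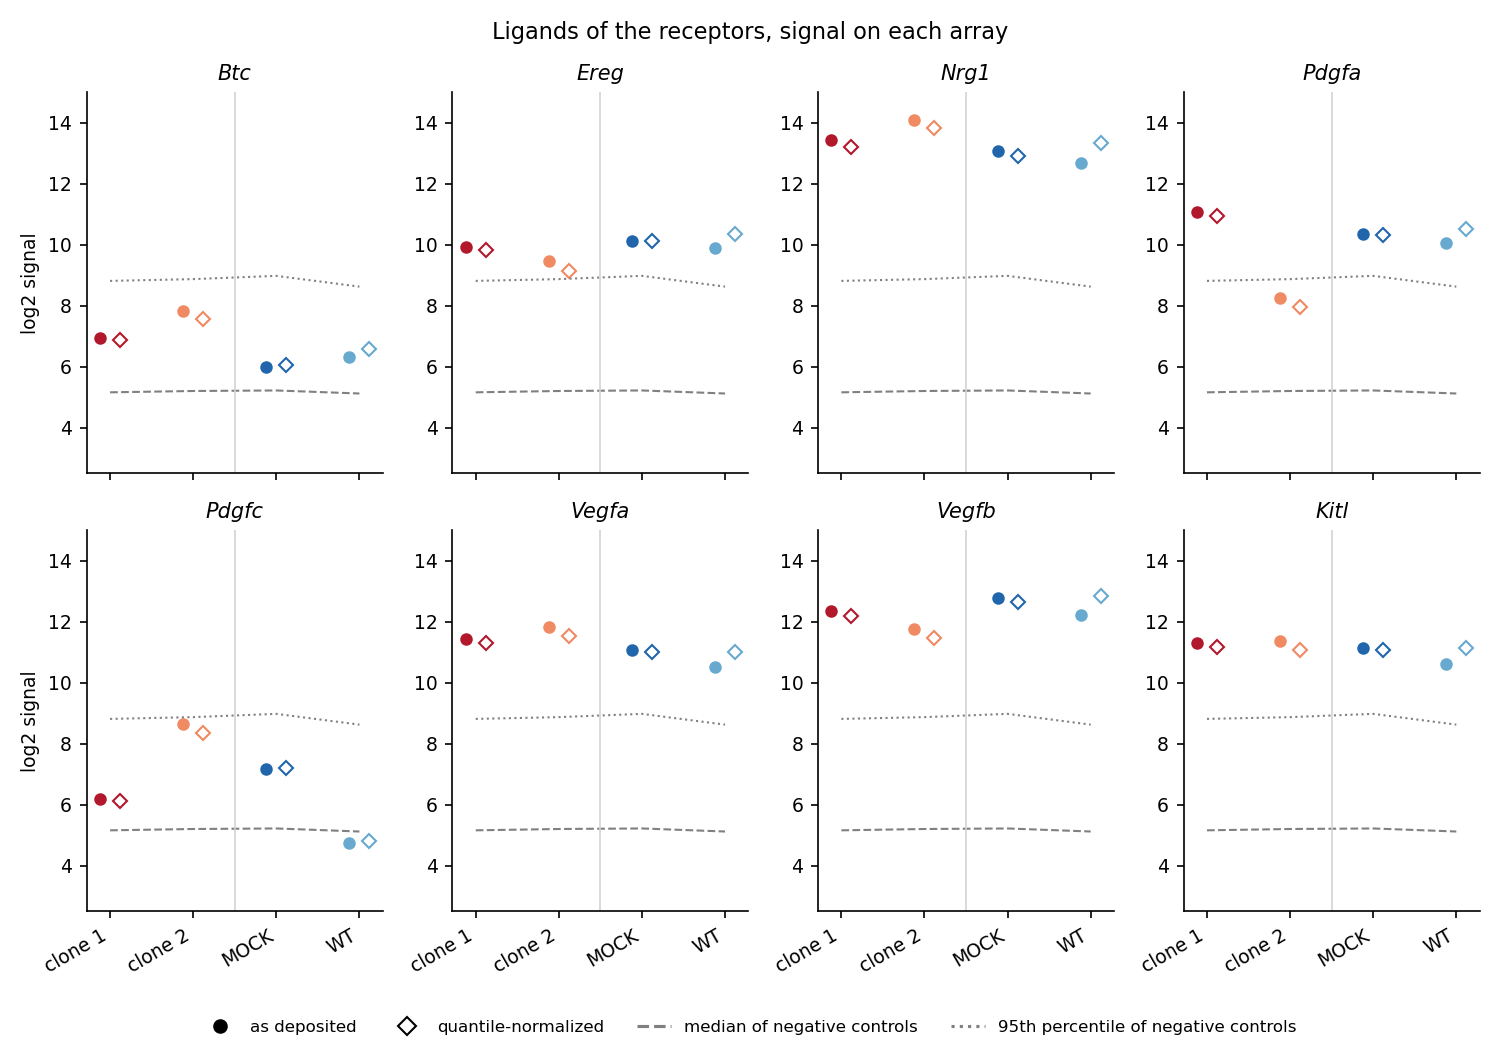
Log2 signal (vertical axis) of 8 ligand genes on the arrays of clone 1, clone 2, MOCK and WT (horizontal axis), with symbols and lines as in the plot of receptors by array. Pdgfa is lowest and Pdgfc highest in clone 2, and the Kitl arrays lie close together after quantile normalization.

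Among 24 other receptor kinases 15 were higher and 9 lower as deposited, where 65.1% of all probe sets were higher. Under quantile normalization 11 were higher and 13 lower, where 48.3% were higher. Limma called 0 on either scale, and the medians were 0.27 and -0.03 log2 units. At an unadjusted p under 0.05 there were 4 as deposited (Ddr1, Ddr2, Ror1 and Kdr) and 3 after quantile normalization (Ddr1, Ror1 and Kdr), beside 8.75% and 8.92% of all probe sets. Kdr was under the negative control median on all 4 arrays, and Ror1 was above it in clone 1 alone. The collagen receptor Ddr2 stood at 13.99 and 14.42 in clone 1 and clone 2, against 13.63 and 12.84 in MOCK and WT, a difference of 0.97 (adjusted p = 0.544) that was 0.49 after quantile normalization. Its relative Ddr1 was nearer background, at 5.26 and 6.46 in the clones and at 4.47 and 4.10, below the negative control median, in MOCK and WT. Ddr1 was called with a trended and robust variance model (adjusted p = 0.0216), in a fit that called 340 of 22206 probe sets. It was not called in the main fit of all 4 arrays as deposited (adjusted p = 0.353). Without clone 1 its difference was 2.17 as deposited and 1.91 quantile-normalized. It was called in both of these fits, where only the controls give the spread. The pseudokinase Ptk7 stood at 8.62 in clone 1 and 6.06 in clone 2, against 7.96 in MOCK and 8.50 in WT. Clone 2 alone was low, and without clone 1 it differed from the controls by -2.17, or by -2.55 quantile-normalized. Ptk7 was called in both of these fits, where again only the controls give the spread. All 4 Ptk7 signals were above the negative control median and under the 95th percentile of the negative controls. The insulin receptor gene Insr differed by 0.47, or 0.04 after quantile normalization. The ephrin receptor gene Ephb4 stood at 10.79 in clone 1 and 9.71 in clone 2, against 9.75 in MOCK and 9.88 in WT, so clone 1 alone was high.

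Among 21 adaptors and effectors 17 were higher and 4 lower as deposited, where 65.1% of all probe sets were higher, and 9 and 12 after quantile normalization, where 48.3% were. Limma called 0 on either scale, and the medians were 0.28 and -0.0043 log2 units. At an unadjusted p under 0.05 there were 2 as deposited, Nck1 and Pik3r2, and 1 after quantile normalization, Irs1, beside 8.75% and 8.92% of all probe sets. As deposited, the largest differences above background were those of the adaptor Nck1, at 1.08 (adjusted p = 0.518) and 0.67 after quantile normalization, and of the PI3K regulatory subunit Pik3r2, at 0.99 (adjusted p = 0.484) and 0.56. Pik3r2 stood at 9.76 and 9.85 in clone 1 and clone 2, against 8.94 and 8.70 in MOCK and WT, so the groups did not overlap. Irs1, an adaptor of the insulin and IGF1 receptors, stood at 9.24 and 9.60 in the clones, against 9.83 and 10.56 in MOCK and WT, a difference of -0.77 (adjusted p = 0.641) and of -1.24 after quantile normalization (adjusted p = 0.499), the largest of the list on that scale. Gab1, a docking protein used by MET, stood at 9.58 in clone 1 and 8.46 in clone 2, against 8.42 in MOCK and 8.21 in WT.

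Among 18 negative regulators 11 were higher and 7 lower as deposited, where 65.1% of all probe sets were higher. Under quantile normalization 7 were higher and 11 lower, where 48.3% were higher. Limma called 0 on either scale, and the medians were 0.28 and -0.13 log2 units. At an unadjusted p under 0.05 there were 3 as deposited (Ptprj, Errfi1 and Dok1) and 3 after quantile normalization (Sh2b3, Ptprk and Sh3kbp1), beside 8.75% and 8.92% of all probe sets. Ptprj, a receptor phosphatase that acts on several of these kinases, stood at 7.46 in clone 1 and 9.61 in clone 2, against 7.09 in MOCK and 6.76 in WT. Both clones were above both controls and clone 2 by far the more, a difference of 1.62 (adjusted p = 0.476) and of 1.24 after quantile normalization. Without clone 1 it was called, at 2.69 as deposited (adjusted p = 0.00257) and at 2.19 quantile-normalized (adjusted p = 0.00299), in fits where only the controls give the spread and which called 2.38% and 3.62% of all probe sets. Errfi1, a feedback inhibitor of the EGFR kinase, stood at 9.57 and 10.27 in the clones, against 8.16 and 9.11 in MOCK and WT, a difference of 1.29 (adjusted p = 0.442) and of 0.84 after quantile normalization, where WT came to overlap the clones. Dok1, a docking protein that dampens RAS signalling, differed by 1.02, or 0.64 after quantile normalization. Lrig3, a leucine-rich relative of the ERBB inhibitor LRIG1, differed by 0.85, or 0.44 on the normalized scale.

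Among 6 measured co-receptors and shedding genes 4 were higher and 2 lower as deposited, where 65.1% of all probe sets were higher. Under quantile normalization 3 were higher and 3 lower, where 48.3% were higher. On either scale 0 were called by limma and 0 lay at an unadjusted p under 0.05. Nrp2, a VEGF and semaphorin co-receptor, differed by 0.53 log2 units (adjusted p = 0.736) and by 0.05 after quantile normalization. The hyaluronan receptor Cd44, whose variants can act with MET, differed by 0.42, or -0.06 after quantile normalization. The sheddases Adam10 and Adam17, which cut ERBB ligands from the membrane, differed by -0.27 and -0.19 as deposited. On the quantile-normalized scale they differed by -0.70 and -0.63, where both clones were below both controls for each (adjusted p = 0.624 and 0.598).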

How the data were processed

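Clariom S mouse arrays, 1 per sample, were used for 4 samples. The deposited values are normalized log2 signals, made by the authors in the Transcriptome Analysis Console per the submitters' processing notes. Not given in the sources used here are its version, the normalization, the filters and the genome build, and the log2 scale was read from the range. Samples were grouped by title, because a cell label naming the knockout stands on all 4, controls included. Every column matched a sample, leaving 0 without one.

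Control features numbered 6640 of 28846 and were dropped, and all the other 22206 probe sets entered the fit. The platform annotation gave 1 symbol to 19572, several to 0 and none to 2634. RefSeq names (GRCm38.p6) changed 0 symbols. Where a gene had several probe sets, the one with the highest mean stood for it.

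Knockout minus control was fitted with limma (version 3.58.1, R 4.3.3), lmFit and eBayes, with Benjamini-Hochberg adjustment over all probe sets and a call at an adjusted p under 0.05. All adjusted p-values in the text are limma's. The fit was also run on simulated data with planted differences. Those data lacked the unequal spread between arrays seen here, so that run does not test the calls. The receptors, lists and tests were chosen with earlier results of these data known. Genes named from a list are the 4 with the largest difference among those with both group means above the negative control median. Measured ligands of the receptors described are named as well, apart from Hbegf, Epgn and Pdgfd, which were near or under that median. Mgat5 is also named. Ddr1, Dcn, Postn and genes named only for an unadjusted p were named after their values were seen. Alternatives were quantile normalization, median centring, a trended and robust eBayes, a dim filter at the 25th percentile, and leaving out each array. Leaving out each array under quantile normalization was added after seeing the data.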

Additional observations from a re-analysis of the deposited data

How the results depend on the processing

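Of 108 results of single receptors under 12 alternatives, 80 kept their direction and their side of the threshold, 27 turned in sign and 1, Met without clone 1 under quantile normalization, was called. The count of receptors called was 0 under every other alternative. Quantile normalization turned Erbb2 (-0.15), Pdgfrb (-0.0384), Fgfr1 (-0.11) and Axl (-0.0132), and median centring turned Egfr (-0.086). With each array left out in turn, on both scales, the difference ran from -0.16 to 0.20 for Egfr, from -0.33 to 0.29 for Erbb2, from -0.84 to 0.15 for Erbb3, from -1.80 to 0.10 for Met, from -0.31 to 0.58 for Pdgfrb, from -0.97 to 1.30 for Fgfr1, from -0.23 to 2.08 for Flt1, from -0.27 to 0.91 for Axl and from -0.72 to 0.45 for Kit. The cause of these turns was not tested. The median over the receptors, 0.28 log2 units as deposited, was -0.11 after quantile normalization and 0.14 after median centring, and ran from -0.23 to 0.28 with an array left out. The count of receptors called ran from 0 to 1 in those fits and that of the 91 genes of the pathway lists from 0 to 5. The highest receptor count came without clone 1 after quantile normalization, where 3.62% of all probe sets were called. The highest pathway count came without clone 1 as deposited, where 2.38% were. Only the controls give the spread in these fits, so their counts are not read as a test of the lists. The pathway count was 1 with the trended and robust variance model. The 9 probe sets called over the whole array became 1 after quantile normalization, 125 with the filter at the 25th percentile, 340 with the trended and robust model, and 0 to 804 with an array left out. The count was 529 without clone 1 and 149 without clone 2 as deposited, and on both scales 1 without MOCK and 0 without WT. No receptor had more than 1 probe set, so no other probe set could be tried. No paired analysis was run, because nothing in the labels pairs a clone with a control. Signals of Egfr, Kit and Erbb3 lay at the level of the negative controls, which limits what their arrays can show.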
